A study of Mus musculus with 22 samples.

Results

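The experiment described here asked how the endothelial cells of the mouse brain changed their RNA 3 hours after glutamatergic neurons had been driven to fire. It holds 8 of the 22 libraries of the series, 4 labelled activation and 4 labelled as their controls, taken by the column names of the deposited table. Of the 37991 entries in that table, 12872 had at least 1 CPM in 4 or more of the 8 libraries and were tested, where CPM is the read count of a gene after scaling all libraries to one total. Activation mice were C57BL/6 mice of the genotype CamKIIa-tTA; TRE-hM3Dq that had received clozapine-N-oxide (CNO). Their controls were littermates that had received CNO too. The design text has the control mice free of any DREADD, yet their genotype label is that of the activation mice, so the labels do not say which transgene a control carried. Each library combined cortex and hippocampus, and cells bearing CD31 were sorted from the suspension by fluorescence. Libraries came from total RNA and were read as pairs of 100 bases on a HiSeq4000. The other 2 experiments serve here for comparison. In the first, silencing mice of the genotype CamKIIa-tTA; TRE-hM4Di and their littermate controls gave 4 libraries each, also 3 hours after CNO. In the second, wild-type C57BL/6 mice that explored an enriched cage in the dark (whisker-plus) and mice without whiskers in an empty cage (whisker-minus) gave 3 libraries each, every one pooled from 5 pairs of barrel cortices.

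Endothelial cells line the vessels of the brain, where tight junctions, low vesicle traffic and a set of transporters make up the blood-brain barrier. They sit next to active neurons and receive signals from them through astrocytes, pericytes, blood flow and secreted factors. hM3Dq is a designer form of a muscarinic receptor that couples to Gq and raises firing when CNO is given, and hM4Di couples to Gi and lowers it. In these mice the tTA protein is made under the CamKIIa promoter, which is active in excitatory neurons of the forebrain, and switches on the receptor. The endothelial cells themselves are therefore not the cells that the receptor was meant for. Its transcript was not analysed here, so which libraries carried it was not checked. Neither age, sex nor the number of mice behind a library is given in the sources used here.

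Depth was 21144845 to 22552463 reads in activation libraries and 18387666 to 25163689 in controls. Mitochondrial transcripts held 1.17 to 1.27% of reads in activation libraries and 1.08 to 1.18% in controls. The 20 most abundant genes held 8.70 to 9.34% of reads in activation libraries and 9.66 to 10.41% in controls, so these ranges did not overlap, and what this share contributes to the results was not tested. The 20 endothelial marker genes, Cldn5, Flt1 and Cdh5 among them, were tested in full and summed to 33452 to 36684 CPM in activation libraries and 36192 to 37481 CPM in controls. Of the markers of other cells, the 12 neuron markers summed to 73.0 to 147 CPM in activation libraries and 85.4 to 163 CPM in controls, and the 11 pericyte markers to 793 to 2196 CPM in activation libraries and 809 to 2327 CPM in controls. The summed levels overlapped between the groups for each of the 10 lists of markers of other cells. All 5 tested choroid plexus and ependymal markers had a log2 fold change above 0 (median 0.66). So did all 8 tested smooth muscle markers (median 0.33) and 11 of 12 astrocyte markers (median 0.20). Below 0 lay 7 of 10 tested neuron markers and 4 of 5 tested erythroid markers. What such cells contributed to the results was not tested. Of the 12 markers of macrophages and blood leukocytes, Cd3e and Ly6g were at 0 in all 8 libraries. In bulk RNA, fewer cells of a type and less RNA per cell cannot be told apart, and this holds for each result given here.

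At an adjusted p under 0.05 in limma, with the 4 activation libraries set against the 4 controls, 18 genes passed, 9 higher and 9 lower after activation. That is 0.14% of the genes tested, 0.0699% in each direction. Libraries of the same number resembled each other across the groups, and with the number as a replicate block 234 genes passed. Of these 132 were higher (1.03%) and 102 lower (0.792%), 1.82% of the genes tested in all, and all 18 were among them. Changes were small: the median size of the 234 was 0.58 on the log2 scale, the smallest 0.33, and 13 exceeded 2-fold, 7 higher and 6 lower. Activation and control libraries did not overlap in 174 of the 234, against 921 of all genes tested (7.16%, with 3.65% higher and 3.5% lower). The 234 were chosen by the difference in these same libraries, so nothing is read from their larger share. Over all genes tested the log2 fold change had a median of -0.01, with 6229 genes above 0 and 6643 below. Counts for the gene lists below are to be read beside these numbers and the shares called. These counts depended on single libraries. Without the block, leaving out control 2 gave 8 calls, leaving out control 1 gave 2, and leaving out any of the other 6 libraries gave 0, with 1102 to 1687 genes at an unadjusted p under 0.05 in these 8 fits. With the block, leaving out a pair gave 5 calls without pair 1, 46 without pair 2, 10 without pair 3 and 43 without pair 4. Of 65 genes named by rule, Mcam, Cnn2, Ddc and Islr2 passed in all 4 of these smaller fits and 33 passed in none. With the block, 32 of the 65 also passed under TMM scaling, RLE scaling and edgeR alike, and 18 under none of them. Those 18 were Igf1r, Hlf, Hba-a2, Arhgap19, Nid1, Mt2, Ccnd3, Ehd1, Ehd2, Prkcdbp, Msn, Coro1c, Tpm4, Tes, Tubb2a, Tubb2b, Tubb4b and Tuba1a. RLE and TMM scaling, which correct for the makeup of a library, left 68 and 137 calls with the block and 0 without it, where 1668 genes had an unadjusted p under 0.05 under either scaling.

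**Figure D1:**
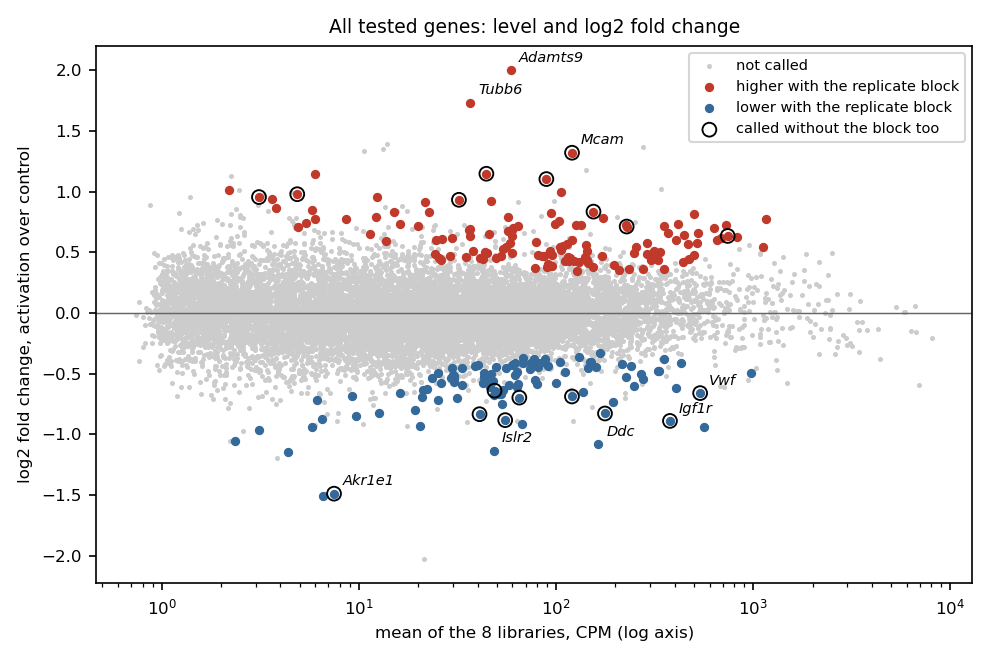
Log2 fold change of activation over control on the log2(CPM + 1) scale against the mean level of the 8 libraries in CPM (log axis), 1 point for each of 12872 tested genes; coloured points passed with the replicate block, and black rings mark the 18 that passed without it too. Coloured points lie mostly above 20 CPM, and only 13 of them lie beyond 1 or -1.

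Mcam, the adhesion molecule CD146, rose after activation. It reached 183, 169.6, 128 and 209 CPM in activation libraries 1 to 4, against 83.2, 77.8, 49.1 and 64.4 CPM in controls 1 to 4. Every activation library lay above every control, with a wide gap between the lowest of them and the highest control. The log2 fold change was 1.32 ± 0.18 (SE), with an adjusted p of 0.041, and 0.00523 with the replicate block. Mcam was the only member of the list of tip cell and sprouting genes that passed, although 14 of its 22 tested genes were above 0 (median 0.26). Vegfa, the main endothelial growth factor, belongs to the list of growth factor ligands and did not pass, at 10.9 ± 3.25 CPM in activation libraries and 7.35 ± 0.74 CPM in controls (SD, n = 4 each).

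Promoters of 3 genes that passed with the block are shown because each carries a short motif known from activity or clock biology, and they were chosen after the values were seen. They span 250 bases before to 50 after the annotated start, are taken from RefSeq on GRCm38.p6, and are written on the strand of the gene. For Mcam (chr9:44134408-44134707, plus strand) capitals mark the cAMP response element TGACGTCA, the motif bound by CREB, which begins 29 bases before the start. For Anxa2 (chr9:69453433-69453732, plus strand), higher after activation, they mark an AP-1 site, TGANTCA, the motif of Fos and Jun, 95 bases before the start. For Tef (chr15:81802423-81802722, plus strand), lower after activation, they mark the E-box CACGTG, through which clock proteins act, 127 bases before the start.
Mcam: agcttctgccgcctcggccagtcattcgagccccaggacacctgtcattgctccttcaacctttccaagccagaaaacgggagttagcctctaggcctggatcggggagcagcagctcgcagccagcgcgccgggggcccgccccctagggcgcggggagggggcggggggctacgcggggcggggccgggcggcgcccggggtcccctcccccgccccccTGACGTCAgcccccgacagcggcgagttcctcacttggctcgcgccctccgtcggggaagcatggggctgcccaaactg
Anxa2: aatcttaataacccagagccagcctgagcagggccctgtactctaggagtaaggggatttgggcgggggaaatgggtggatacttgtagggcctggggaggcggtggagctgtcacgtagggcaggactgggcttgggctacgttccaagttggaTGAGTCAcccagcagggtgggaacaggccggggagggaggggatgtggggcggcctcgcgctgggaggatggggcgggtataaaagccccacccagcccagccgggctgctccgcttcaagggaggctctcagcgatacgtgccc
Tef: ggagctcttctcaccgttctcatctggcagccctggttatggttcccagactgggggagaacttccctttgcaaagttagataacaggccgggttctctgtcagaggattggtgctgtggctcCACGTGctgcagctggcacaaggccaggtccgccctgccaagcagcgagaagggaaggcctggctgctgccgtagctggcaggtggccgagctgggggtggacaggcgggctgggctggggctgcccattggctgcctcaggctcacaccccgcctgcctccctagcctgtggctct
Searched on both strands, the cAMP response element was found in 3.43% of the 9632 promoters of tested genes, the AP-1 site in 4.55% and the E-box in 10.3%. Only 103 of the 132 higher genes and 84 of the 102 lower genes had a promoter in the table, and the higher genes, like the tested genes as a whole, fall under the 80% needed, so a comparison of motif shares is void. A match describes these letters and shows no binding.

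Other genes of the cell surface and its signalling rose as well. Mall, a proteolipid of membrane rafts, reached 143, 124, 103 and 117 CPM after activation, against 47.9, 69.7, 44.7 and 64.5 CPM in controls. No library overlapped, and the log2 fold change was 1.10 ± 0.15 (adjusted p = 0.0418). Tspan2, a tetraspanin, was at 87.0, 59.5, 49.1 and 51.6 CPM after activation, against 23.8, 24.6, 25.7 and 33.2 CPM in controls (log2 1.15 ± 0.18, adjusted p = 0.0495). Activation library 1 was the highest, and the other 3 also lay above all controls. Pdgfa, the ligand of the receptor Pdgfra on glial progenitors and fibroblasts, was at 41.4, 36.0, 46.7 and 45.6 CPM, against 20.4, 22.7, 17.6 and 26.7 CPM in controls (log2 0.93 ± 0.14, adjusted p = 0.0495). It was the only one of 16 tested growth factor ligands to pass, 11 of which lay above 0 (median 0.25). A pair of enzymes of tyrosine phosphorylation rose too: the Src-family kinase Fyn averaged 198 ± 23.7 CPM after activation and 111 ± 19.5 CPM in controls, and the receptor phosphatase Ptpre 6.80 ± 0.921 CPM after activation and 2.94 ± 0.218 CPM in controls (SD, n = 4 each). Both passed at an adjusted p of 0.0495, as did Fxyd7, a regulator of the sodium pump, at 4.42 ± 0.453 CPM after activation and 1.80 ± 0.289 CPM in controls. Trpv4, a calcium-permeable channel of the vessel wall, was the only call among 19 flow-responsive and vasoactive genes, 12 of them above 0 (median 0.13). It passed only with the block (log2 0.57 ± 0.07, adjusted p = 0.0172), at 122 to 149 CPM in activation libraries and 80.6 to 105 CPM in controls.

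**Figure D2:**
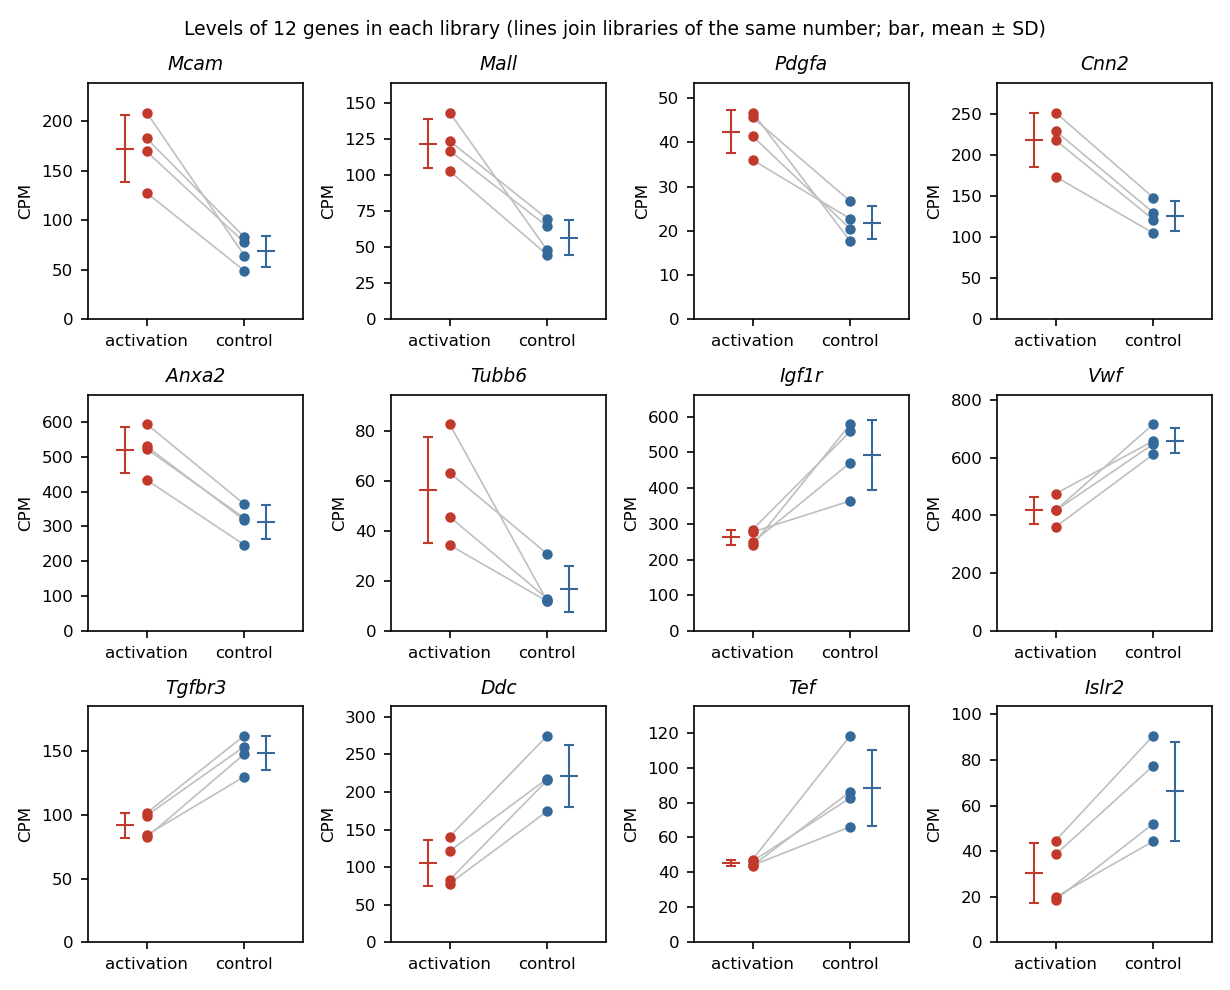
CPM of 12 genes in each of the 4 activation and 4 control libraries, with grey lines between libraries of the same number and bars for mean ± SD; each axis starts at 0. In 11 of the 12 genes drawn activation and control libraries do not overlap, with Islr2 as the exception.

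Genes of the actin cytoskeleton were among those that rose. Of 25 tested genes for actin bundling, crosslinking and branching, 23 lay above 0 and 2 below (median 0.29), and 6 passed with the replicate block (all higher), beside 1.03% of all tested genes. These were Pls3 and Actn1, which bundle filaments, Flna (filamin A), which cross-links them to the membrane, Arpc2 of the branching complex Arp2/3, Msn (moesin), which ties actin to membrane proteins, and Coro1c, a coronin. Blocked fits called 4 of the 6 with TMM scaling, 2 with RLE scaling and 3 with edgeR, with Actn1 and Arpc2 in each. Pls3 stood at 987, 861, 792 and 978 CPM after activation, against 579.7, 570.3, 567 and 601 CPM in controls. The controls lay close together and all activation libraries lay far above them, with a log2 fold change of 0.64 ± 0.10 (adjusted p = 0.0495). Arpc2 was the most even of the 6: its 4 pairs differed by 0.46 to 0.52 on the log2 scale (adjusted p = 0.0236 with the block). Actb, the cytoplasmic actin itself, did not pass, at 1598 ± 150.2 CPM after activation and 1459 ± 317 CPM in controls (SD, n = 4 each).

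Genes that respond to serum response factor (SRF) and its cofactors, the MRTF proteins, which are freed when actin polymerises, overlap with this group. Of 22 tested, 21 lay above 0 and 1 below, with a median of 0.47. With the block 6 passed, all higher, beside 1.03% of all tested genes: Cnn2, Pdlim5, Pdlim7, Flna, Tpm4 and Tes. Cnn2, Pdlim5 and Pdlim7 passed under TMM scaling, RLE scaling and edgeR with the block too. Cnn2, the calponin of non-muscle cells, was at 252, 174, 229 and 218 CPM after activation, against 148, 105, 129.9 and 121 CPM in controls. The groups did not overlap, and the 4 pairs differed by 0.72 to 0.84 on the log2 scale. Its log2 fold change was 0.78 ± 0.13, with an adjusted p of 0.0638 without the block and 0.00523 with it. Pdlim5, a scaffold of actin fibres, passed in both fits at 299, 231, 308 and 298 CPM after activation, against 158, 167, 176 and 187 CPM in controls (log2 0.71 ± 0.11, adjusted p = 0.0495). The list also holds smooth muscle genes, which did not pass. Acta2 and Tagln, the actin and transgelin of smooth muscle, reached 194 and 131 CPM in activation library 4. Acta2 was at 44.2 to 194 CPM in activation libraries and 27.0 to 97.1 CPM in controls, and Tagln at 36.3 to 131 CPM in activation libraries and 23.1 to 57.3 CPM in controls. All 8 tested smooth muscle markers lay above 0, and their sum was 246 to 807 CPM in activation libraries and 213 to 496 CPM in controls. By pair, the median of these markers was 0.03, 0.49, -0.26 and 1.11 on the log2 scale. That of the SRF and MRTF list, which itself holds smooth muscle genes, was 0.63, 0.32, 0.30 and 0.44, and that of the actin list 0.27, 0.22, 0.36 and 0.35. What smooth muscle cells contributed to either list was not tested.

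**Figure D3:**
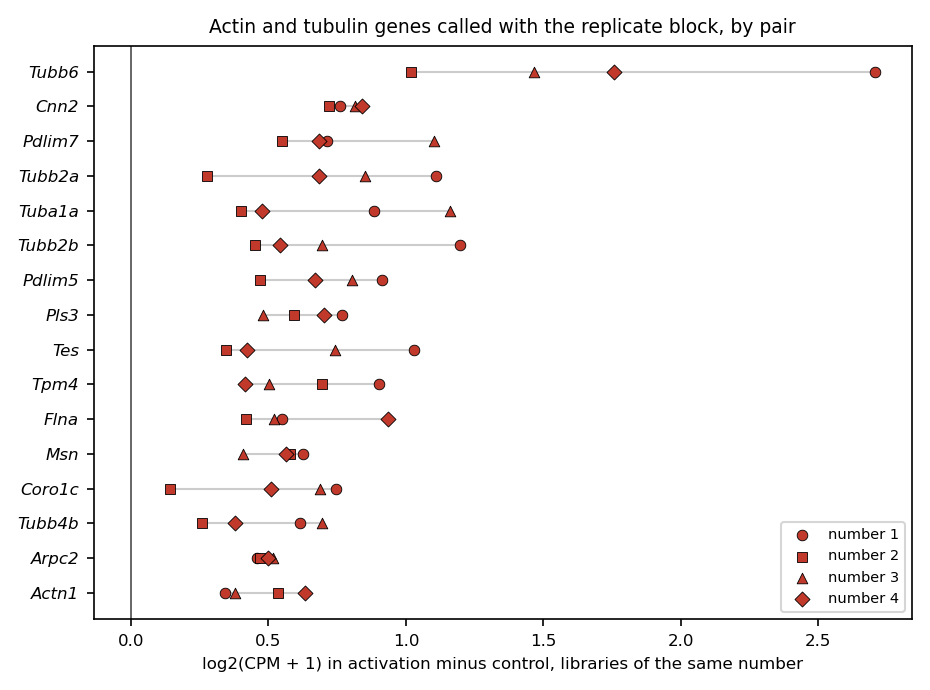
Difference in log2(CPM + 1) between activation and control libraries of the same number for the 16 actin, SRF and MRTF, and tubulin genes that passed with the replicate block, with 1 marker per pair. All 64 differences lie right of 0, but each gene was drawn for passing as higher with the block, so nothing is read from this. Tubb6 spans the widest range and Arpc2 the narrowest.

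Several tubulins, the subunits of microtubules, rose too. Of 14 tested, 11 were above 0 (median 0.41). With the block 5 passed, all higher, beside 1.03% of all tested genes: Tubb6, Tubb2a, Tubb2b, Tubb4b and Tuba1a. Under TMM scaling, RLE scaling or edgeR, each with the block, only Tubb6 of these 5 passed. Tubb6 had the second-largest change among all genes that passed, at 82.8, 63.4, 34.4 and 45.7 CPM after activation, against 11.9, 30.8, 11.8 and 12.8 CPM in controls. Control 2 stood apart from the other 3 controls, but all 4 activation libraries were higher than it (log2 1.74 ± 0.23 with the block, adjusted p = 0.0178, and 0.075 without it). Tuba1a was at 878, 916, 694 and 1058 CPM after activation, against 476, 694, 310.2 and 759.7 CPM in controls, so the groups overlapped while each pair differed the same way. Its log2 fold change of 0.73 was 0.47 without control 3. Tubulin genes are close copies of one another and have pseudogenes, so reads may have been split between them. Genes of centrosomes and microtubule motors lay mostly below 0, with 17 of 21 there (median -0.16). Pcnt (pericentrin), Kif13b, a kinesin, and Cep110, a protein of centrioles, passed with the block, all lower, beside 0.792% of all tested genes. Pcnt and Kif13b also passed without it. Pcnt was at 46.1, 48.4, 47.2 and 56.2 CPM after activation, against 83.3, 83.4, 80.3 and 75.7 CPM in controls (log2 -0.70 ± 0.09, adjusted p = 0.041).

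Genes of caveolae, the membrane pits that carry cargo across endothelium, lay slightly above 0: 14 of 15 tested lay above 0 (median 0.18). The replicate block gave 3 calls, all higher, beside 1.03% of all tested genes. With the block, 0 of these 3 passed under TMM scaling, RLE scaling or edgeR, while DESeq2 called 4 of the 15 genes. Ehd2, which holds the neck of a caveola, was at 679, 504, 612 and 694 CPM after activation, against 471, 408, 336 and 453 CPM in controls. Its groups did not overlap (log2 0.58 ± 0.10 with the block, adjusted p = 0.0338). Prkcdbp (cavin-3), a coat protein of caveolae, and Ehd1, which recycles endocytic membrane, changed by 0.51 ± 0.09 and 0.45 ± 0.09. Cav1, the main caveolar protein, did not pass, at 495 ± 78.3 CPM after activation and 432 ± 58.5 CPM in controls (SD, n = 4 each). Anxa2 and S100a10 form a complex on the endothelial surface that binds plasminogen and its activator, and both rose with the block. Anxa2 was at 594, 522, 433 and 529.6 CPM after activation, against 364, 324, 247 and 318 CPM in controls. Every activation library was above every control, and the 4 pairs moved alike (log2 0.73 ± 0.07, adjusted p = 0.0095 with the block and 0.075 without). S100a10 changed by 0.79 ± 0.12 (adjusted p = 0.0252 with the block), at 51.3 to 87.9 CPM in activation libraries and 26.3 to 51.1 CPM in controls, ranges that nearly touch. Vwf, the von Willebrand factor that binds platelets at a wound, went the other way, at 475, 417, 417 and 360.2 CPM after activation, against 658, 716, 647 and 611 CPM in controls (log2 -0.66 ± 0.11, adjusted p = 0.0495). These were the 3 members called among 16 tested haemostasis genes, beside 1.82% of all tested genes. Of the 16, 13 lay above 0 (median 0.28). Thbd, the thrombin receptor thrombomodulin, had no overlap, at 949 to 1296 CPM after activation and 681 to 906 CPM in controls, but missed the threshold (adjusted p = 0.0584 with the block).

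Metalloproteases and their inhibitors gave the largest single change. Adamts9, a secreted protease that cleaves proteoglycans, was at 97.6, 186, 37.7 and 66.1 CPM after activation, against 11.7, 28.3, 20.7 and 21.8 CPM in controls. The activation libraries were spread widely, with number 2 the highest, and still lay above all controls. The log2 fold change was 2.00 ± 0.41 with an adjusted p of 0.115, and 2.00 ± 0.30 with 0.0264 under the block. Adam15, a disintegrin protease of endothelial junctions, changed less but evenly, at 784 to 886 CPM after activation and 458 to 589 CPM in controls (0.62 ± 0.08, adjusted p = 0.0218 with the block). Of 16 tested members 14 were above 0 (median 0.23), and these 2 passed. Reck, a membrane-bound inhibitor of metalloproteases that also acts as a receptor for Wnt7 ligands in brain endothelium, was lower with the block (-0.43 ± 0.07, adjusted p = 0.0309). It was the only one of 22 tested genes of the Wnt pathway of the barrier to pass, 16 of which were below 0 (median -0.08). Matrix genes had no common direction: Nid1, the linker protein of basement membranes, rose and Lama3, a laminin chain, fell with the block, and 13 of 24 lay above 0.

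Chaperone and ribosome biogenesis genes lay mostly above 0 with few calls. Of 25 tested cytosolic heat shock chaperones, 23 were above 0 (median 0.29). Hsp90aa1 and Hspa4l passed with the block, both higher, beside 1.03% of all tested genes. Hspa4l had a log2 fold change of 0.47 that was 0.28 without activation library 4. Hsp90aa1 was at 85.9, 129.7, 111 and 164 CPM after activation, against 50.9, 86.7, 58.7 and 99.9 CPM in controls. Its groups overlapped, yet the numbers had the same order in both (log2 0.73 ± 0.08 with the block, adjusted p = 0.0095, and 0.251 without). All 24 tested ribosome biogenesis genes lay above 0 (median 0.32), and 1 passed, the nucleolar GTPase gene Gnl3 (0.61 ± 0.12, adjusted p = 0.0453 with the block). Of 26 tested genes for chaperones of the endoplasmic reticulum and its stress response, 23 were above 0 (median 0.18) and 0 passed in limma with or without the block. Without the block 6 had an unadjusted p under 0.05, and with it 10. In either fit DESeq2 called 2 and edgeR 0. Hspa5, the main chaperone of that compartment, was at 1033 ± 198 CPM after activation and 851 ± 276 CPM in controls (SD, n = 4 each). Sterol synthesis and uptake genes gave 18 of 23 above 0 (median 0.15) and 0 limma calls in either fit. At an unadjusted p under 0.05 there were 6 without the block and 7 with it. DESeq2 called 1 without the block and 2 with it, and edgeR 0 in either fit. Pair 2 differed from the others in these lists, with a median of -0.10 for the endoplasmic reticulum list and -0.14 for the sterol list. Ccnd1, a D-type cyclin that drives entry into the cell cycle and is induced by ERK signalling, was at 127, 119, 124 and 198 CPM after activation, against 70.3, 71.7, 49.3 and 91.2 CPM in controls. No library overlapped, and activation library 4 was far above the rest (log2 1.00 ± 0.10 with the block, adjusted p = 0.0095, and 0.103 without). Ccnd3, another D-type cyclin, changed by 0.46 ± 0.09 (adjusted p = 0.0412 with the block). The wider list of 16 G1 regulators had 7 above and 9 below 0, and that of 16 ERK target and feedback genes 13 above 0 (median 0.21), with Ccnd1 its only call.

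**Figure D4:**
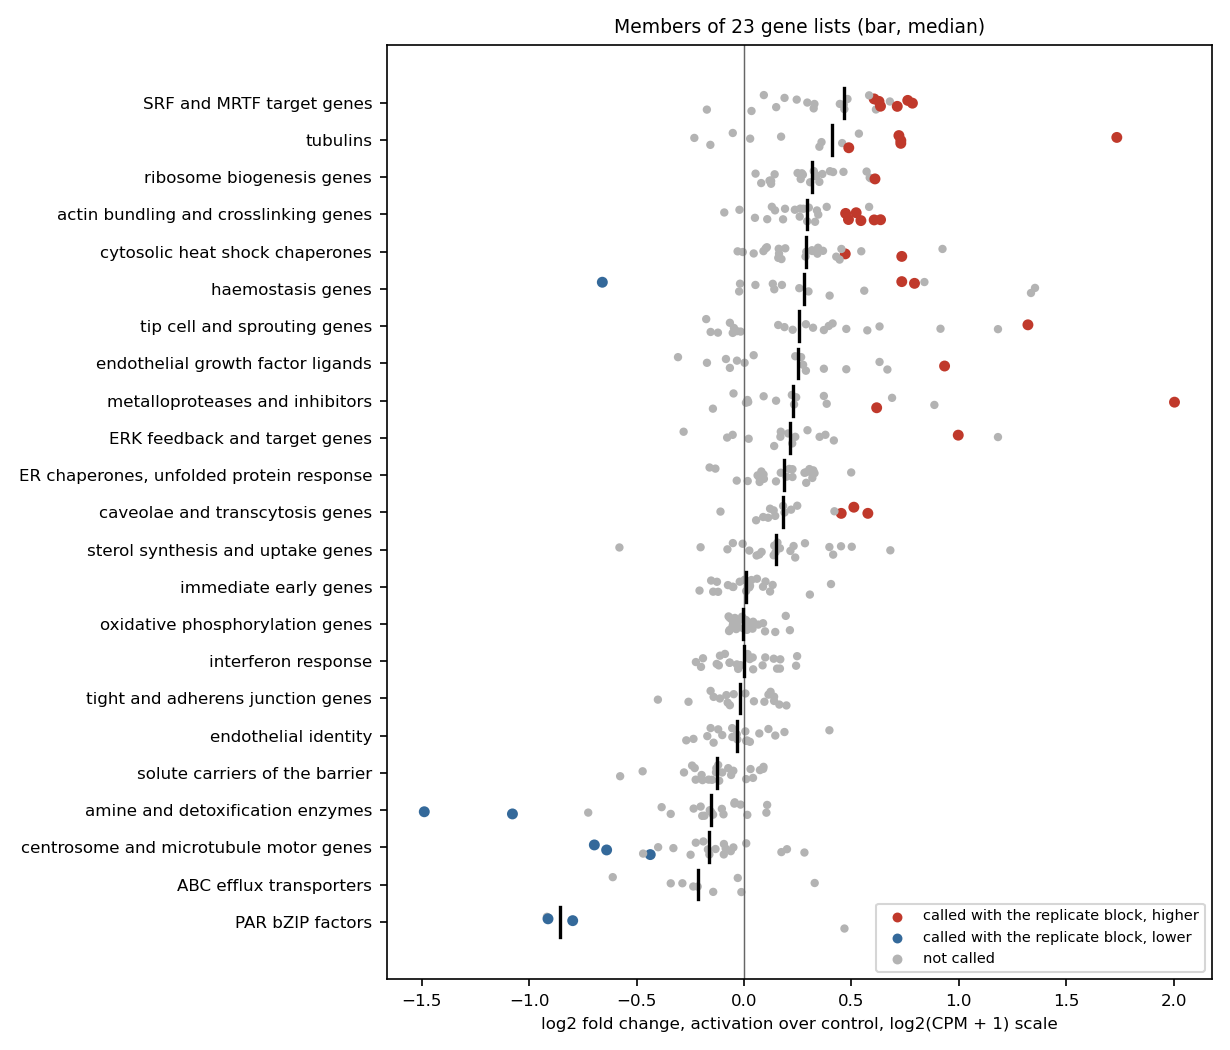
Log2 fold change of activation over control for the tested members of 23 gene lists, 1 point per gene and a black bar at each list's median; red and blue points passed with the replicate block. Medians of the lists drawn run from 0.47 for SRF and MRTF targets to -0.86 for PAR bZIP factors, and lists of junction, identity and immediate early genes are centred near 0. Lists of markers of other cells are not drawn.

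Receptors for growth factors were among the genes that fell. Igf1r, the receptor of insulin-like growth factor 1, was at 277, 248, 284 and 241 CPM after activation, against 364, 471, 559 and 579 CPM in controls. The activation libraries lay close together and all below the controls (log2 -0.89 ± 0.14, adjusted p = 0.0495). Igf1r was the only one of 19 insulin and IGF signalling genes to pass. Tgfbr3, the co-receptor betaglycan that presents TGF-beta, was at 82.5, 99.6, 102 and 84.3 CPM after activation, against 148, 154, 162 and 130.3 CPM in controls (log2 -0.69 ± 0.11, adjusted p = 0.0495). It was the only one of 28 tested genes of TGF-beta and BMP signalling to pass. Scube2, a secreted protein with EGF-like repeats, passed with the block at 9.25 to 16.9 CPM after activation and 17.0 to 37.0 CPM in controls. Megf6, another protein with EGF-like repeats, passed in both fits at 127 ± 16.5 CPM after activation and 227 ± 30.1 CPM in controls (SD, n = 4 each).

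Of 20 tested enzymes for amines and small molecules, 17 lay below 0 (median -0.16) and 2 passed with the block. Ddc, the decarboxylase that makes dopamine and serotonin and forms part of the enzymatic barrier of brain vessels, was at 122, 78.2, 141 and 83.1 CPM after activation, against 218, 175, 275 and 216 CPM in controls. The groups did not overlap, and the numbers had the same order in both (log2 -1.08 ± 0.19, adjusted p = 0.0726, and ± 0.09 with 0.00523 under the block). Akr1e1, an aldo-keto reductase, was at 3.55, 3.30, 3.88 and 2.81 CPM after activation, against 15.4, 9.82, 8.15 and 12.9 CPM in controls (log2 -1.49 ± 0.20, adjusted p = 0.041). It was the only one of the 9 falling genes called without the block whose change exceeded 2-fold. Islr2, a leucine-rich repeat protein, was at 44.7, 38.5, 18.7 and 19.9 CPM after activation, against 90.7, 77.5, 52.1 and 44.3 CPM in controls. Its groups overlapped slightly, but the 4 pairs moved alike (-1.14 ± 0.10 with the block, adjusted p = 0.00523, and 0.183 without). Esyt2, which tethers the endoplasmic reticulum to the plasma membrane, was at 376, 286, 440.0 and 404 CPM, against 951, 427, 833 and 769.5 CPM in controls. Control 2 overlapped the activation range, and Esyt2 passed with the block (adjusted p = 0.0172). Its log2 fold change was -0.94 here and -1.02 after silencing (adjusted p = 0.0921 there with the block). Myof, a ferlin of membrane repair, and Phactr1, a regulator of actin and of protein phosphatase 1, passed in both fits, Myof at 29.0 ± 2.00 CPM after activation and 52.7 ± 6.44 CPM in controls, and Phactr1 at 38.5 ± 3.66 CPM after activation and 71.9 ± 6.90 CPM in controls (SD, n = 4 each). Klhl3, an adaptor of a ubiquitin ligase, passed with the block at 2.38 ± 1.01 CPM after activation and 6.33 ± 1.12 CPM in controls. Hba-a2, a globin gene of red cells with a near-identical copy, passed with the block too, at 0.134 to 13.1 CPM after activation and 1.07 to 23.7 CPM in controls, and its counts are uncertain. Its log2 fold change of -1.51 was -0.92 without control 3 and -2.34 without activation library 3.

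Tef and Hlf, PAR bZIP factors that carry the rhythm of the circadian clock to detoxification genes, fell with the block, and they were 2 of the 4 genes in their list (median -0.86). Tef was at 43.9, 47.4, 46.5 and 44.1 CPM after activation, against 86.3, 118, 82.6 and 66.2 CPM in controls. The activation libraries lay very close together and below every control (log2 -0.91 ± 0.15, adjusted p = 0.0527, and 0.0172 with the block). Hlf was at 15.5, 14.4, 11.8 and 13.1 CPM after activation, against 19.1, 23.5, 25.9 and 30.5 CPM in controls (-0.80 ± 0.15 with the block, adjusted p = 0.0425). The third factor, Dbp, missed the threshold (-0.92, adjusted p = 0.0786 with the block), at 6.30, 6.04, 9.13 and 4.96 CPM against 14.4, 22.6, 14.2 and 6.16 CPM in controls. Nfil3, which represses through the same sites, lay above 0 (0.47) and did not pass. Of the 14 core clock genes, 7 were above and 7 below 0, and Arntl (BMAL1), the driver of the loop, passed with the block at 125 to 149 CPM after activation and 83.2 to 114 CPM in controls. Per1 and Nr1d1 were spread widely in both groups: Per1 was at 508 ± 125 CPM after activation and 553 ± 252 CPM in controls (SD, n = 4 each). Glucocorticoid response genes did not move together, with 14 of 21 above 0, and Mt2, a metallothionein, the only call, higher with the block (adjusted p = 0.0414).

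Transporter, junction and identity genes gave no call in limma with or without the block. Of 9 tested ABC efflux transporters 8 were below 0 (median -0.22). Without the block 2 had an unadjusted p under 0.05, and with it 3. DESeq2 called 1 without the block and 2 with it, and edgeR 0 in either fit. Abcb1a, the pump P-glycoprotein, was at 1899, 1701, 2077 and 1895 CPM after activation, against 2333, 2192, 2707 and 2367 CPM in controls. Its groups did not overlap, yet the change of -0.34 ± 0.12 had an adjusted p of 0.32, and 0.138 with the block. Of 24 solute carriers of the barrier 18 were below 0 (median -0.12). Without the block 1 had an unadjusted p under 0.05 and 0 were called by DESeq2 or edgeR. With it 4 had such a p, and DESeq2 called 3 and edgeR 0. The glucose transporter Slc2a1 was at 5916 ± 1191 CPM after activation and 5848 ± 933 CPM in controls, and the lipid transporter Mfsd2a at 626 ± 103 CPM after activation and 586 ± 65.6 CPM in controls (SD, n = 4 each). Junction genes split evenly, 9 above and 9 below 0, with 1 at an unadjusted p under 0.05 (3 with the block). In either fit 0 were called by DESeq2 or edgeR. Cldn5, the main claudin of brain endothelium, was at 3569 ± 397 CPM after activation and 3950.4 ± 586 CPM in controls, and Cdh5, the cadherin of endothelial junctions, at 1274 ± 38.6 CPM after activation and 1270.1 ± 85.1 CPM in controls (SD, n = 4 each). Immediate early genes, which mark recent stimulation of a cell, had 13 of 22 above 0 and a median of 0.01, with 0 at an unadjusted p under 0.05 (2 with the block) and 0 called by limma, edgeR or DESeq2. Fos was at 8478, 7877, 4259 and 6215 CPM after activation, against 8485, 5826, 4145 and 7303 CPM in controls, and the ranges overlapped almost in full. Lists of endothelial identity, arterial, Notch, YAP and TAZ, leukocyte adhesion, glycolysis, oxidative phosphorylation and interferon genes together held 161 tested members with medians between -0.03 and 0.09. Of these 13 had an unadjusted p under 0.05 (19 with the block) and 0 passed in limma or edgeR. DESeq2 called 1 without the block and 5 with it. Vwf was the only call among 13 venous genes, 7 of them above 0.

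The 234 genes called with the block were then read in the other 2 experiments, which share no library with this one. After silencing, 119 of the 132 higher genes lay below 0 (90.2%), compared with 70.4% of all tested genes that were higher after activation. Of the 102 lower genes, 76 lay above 0 after silencing (74.5%), compared with 36.3% of all genes that were lower after activation. The difference between the activation and silencing effects itself passed for 65 of the 132 (49.2%) and 45 of the 102 (44.1%), beside 2.31% of the 13464 genes in that test. With the block it passed for 110 (83.3%) and 74 (72.5%), beside 6.35%. The genes were chosen by the activation effect, which is also a term of this difference, so nothing is read from these shares being above those of all genes. With 1 library left out this test called between 86 genes (without silencing control 4) and 916 (without silencing control 2), against 311 with all libraries, and the count stayed within 1.5 times of that only without activation control 2, activation 3 or silencing control 1. With the block the silencing comparison itself called 3 of the 132 (2.27%) and 4 of the 102 (3.92%), beside 1.04% of the 13017 genes tested there. All 3 of the higher genes and 3 of the 4 lower genes went the opposite way to activation, and 1 of the 4 went the same way. Pdgfa changed by 0.93 after activation and -0.69 after silencing, a difference of 1.62 (adjusted p = 0.00296). Ccnd1 changed by 1.00 after activation and -0.81 after silencing (difference 1.81, adjusted p = 0.00548), and Cnn2 by 0.78 after activation and -0.59 after silencing (difference 1.37, adjusted p = 0.00296). On the falling side Islr2 changed by -1.14 after activation and 1.41 after silencing (difference -2.55, adjusted p = 0.0178), Ddc by -1.08 after activation and 0.59 after silencing (difference -1.67, adjusted p = 0.00296) and Hlf by -0.80 after activation and 1.21 after silencing (difference -2.01, adjusted p = 0.00449). In the silencing comparison itself Ddc (adjusted p = 0.0378) and Hlf (0.0226) passed with the block. Pdgfa (0.0562), Ccnd1, Cnn2 and Islr2 (0.0531 each) did not pass there in either fit. Islr2 was spread widely in the silencing controls, at 142 ± 100 CPM. Not every gene was opposed. Esyt2 changed by -0.94 after activation and -1.02 after silencing, with a difference of 0.08 (adjusted p = 0.951). Wdr60, at 3.54 CPM after activation and 8.06 CPM in controls, changed by -0.94 after activation and -0.75 after silencing. It passed with the block in both experiments. Activation and silencing mice share CamKIIa-tTA in their genotype labels, while the whisker mice were wild type. In whisker-plus mice Esyt2 changed by -0.15 ± 0.09 and Wdr60 by -0.44 ± 0.24, and neither passed. Why Esyt2 and Wdr60 fell after both activation and silencing was not tested, and the labels do not say which transgene a control carried. Adamts9 changed by 0.01 ± 0.67 after silencing, with silencing controls at 54.1 ± 73.1 CPM, so its direction there is not known.

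**Figure D5:**
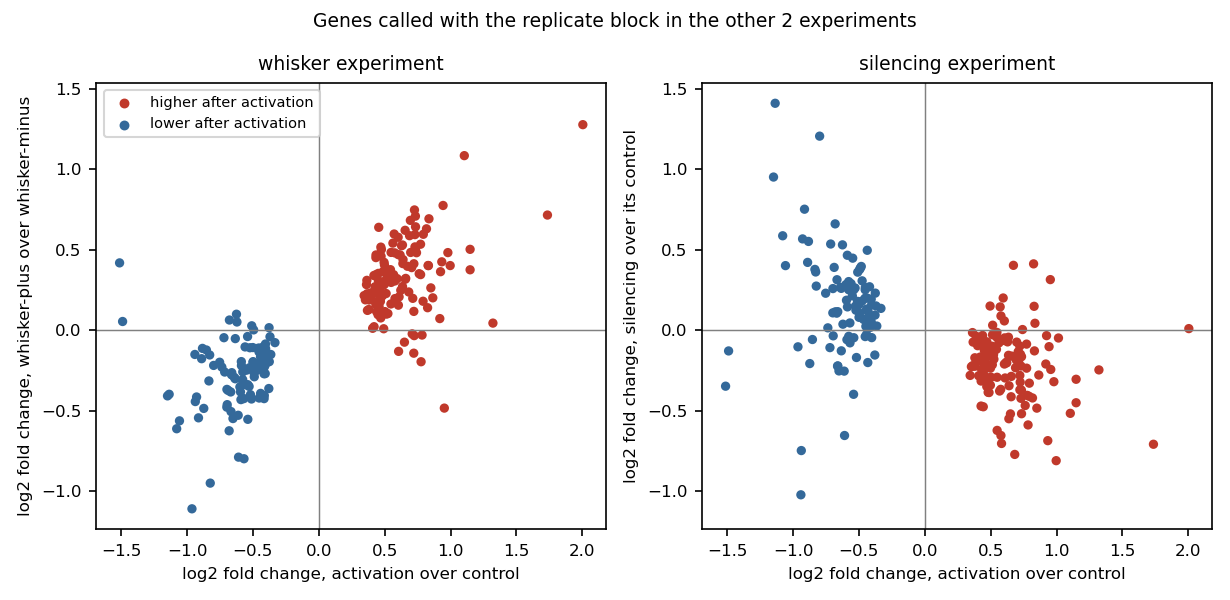
Log2 fold change of the 234 genes called with the replicate block after activation (horizontal) against their log2 fold change in the whisker experiment (left) and the silencing experiment (right), 1 point per gene. In the whisker panel 122 of 130 measured higher genes lie above 0 and 94 of 102 lower genes below it, while in the silencing panel 119 of 132 higher genes lie below 0 and 76 of 102 lower genes above it.

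In the whisker experiment most of these genes lay on the same side of 0 as after activation. Of the higher genes 130 could be tested there, and 122 lay above 0 (93.8%), compared with 55.3% of all genes that were higher after activation. Of the lower genes 94 of 102 lay below 0 (92.2%), compared with 81.2%. With the block 69 of the 130 higher genes (53.1%) and 45 of the 102 lower genes (44.1%) also passed in the whisker comparison, each in the same direction as after activation. Of all genes tested there 8.59% passed, 8.32% of those higher after activation and 9.12% of those lower. These calls rest on the block: without it 0 of the 12776 genes tested passed in the whisker comparison, with 1656 at an unadjusted p under 0.05. No difference between the activation and whisker effects passed in the fit without the block (0 of 13587, with 562 at an unadjusted p under 0.05), where leaving out whisker-minus 1 gave 177 calls, and 1 passed with it (0.00736%). A p that misses the threshold does not show that the effects were alike. Mall changed by 1.10 after activation and 1.09 in whisker-plus mice. Mcam changed by 1.32 ± 0.18 after activation and 0.04 ± 0.37 in whisker-plus mice, an imprecise value with whisker-minus libraries at 73.0 ± 42.5 CPM. Cnn2 changed by 0.78 ± 0.13 after activation and -0.03 ± 0.11 in whisker-plus mice. Neither difference passed without the block. The difference for Cnn2 was the 1 that passed with the block (adjusted p = 0.0204), while that for Mcam had an adjusted p of 0.316. List medians were 0.47 after activation and 0.04 in whisker-plus mice for SRF and MRTF targets, and 0.29 after activation and 0.39 in whisker-plus mice for cytosolic chaperones, differences that were not tested.

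The authors' deposited table marks 1372 genes as changed after activation, 624 up and 748 down, by an unadjusted p, and lists 322 with an FDR under 0.05. Of the 234 genes called here with the block, 209 are marked in the authors' deposited table in the same direction, which is 89.3% of the 234 and 15.2% of the marked genes. Both come from the same libraries, so this is a check of the calculation only. Calls depended on level: with the block, 4.41% of the 2088 genes with a mean of 100 CPM or more passed, and 0.345% of the 2605 genes at 1 to 5 CPM, where the median SE was 0.18 rather than 0.083 on the log2 scale. Changes of low genes were therefore less detectable at this depth.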

How the data were processed

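RNA of CD31-sorted mouse brain endothelial cells was sequenced, and 8 of 22 libraries (4 activation, 4 control) were compared. Per the file headers, the authors deposited 1 table of CPM values for all libraries. HTSeq 0.6.1, SAMtools 0.1.19, Bowtie2 2.2.1, TopHat2 2.0.11, DESeq2 and the genome build mm9 appear in the submitters' processing notes without their roles. How strand was handled is not stated in those notes, so overlapping genes and near-identical copies may share reads. CPM were whole multiples of 1 read for 100% of values, within 0.01 read, which gave back the depth. Another 6 deposited files were not used.

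Gene names are those of the table, with 25 restored from dates, and 3750 entries share a symbol. RefSeq promoters are on GRCm38.p6, another build, and were matched by Ensembl identifier or, failing that, by name. The fit was limma 3.58.1 (R 4.3.3) on log2(CPM + 1) with its trend of variance on mean level, which understates the change of low genes, with Benjamini-Hochberg adjustment over all tested genes and an adjusted p under 0.05 as the call. Adjusted p-values are limma's unless another tool is named, and values after ± are SE for log2 fold changes and SD for CPM. As the table holds CPM, edgeR was not the main test. Counts recovered from CPM were used only in the alternatives with edgeR 4.0.16 and DESeq2 1.42.0. The log2 fold changes and FDR values of the authors' deposited table were used only where that table is named. The scripts were tested on simulated data.

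Titles give both groups the numbers 1 to 4. The deviation of a library from its group mean correlated with that of its namesake in the other group (0.372, 0.455, 0.431 and 0.277 for numbers 1 to 4), and all 8 libraries lay closest to their own number in the other group. Same-numbered libraries also correlated in the silencing (0.142 to 0.597) and whisker experiments (0.462 to 0.617), each closest to its own number. Pairing was therefore accepted, from the data and not from the labels, and results with this replicate block are given beside those without it. The submitters call the samples biological, but do not say how many animals each holds, so p-values measure the spread between these samples.

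The members, the 47 lists and the tests were chosen with earlier results of these data known. Named genes were all those called without the block, the 12 highest and 12 lowest called with it (mean of at least 5 CPM in the higher group, same direction in 4 pairs), list members called with it, and up to 4 defining members of a list by values only. 1 gene was left out of the lists and is not reported here. Alternatives were scaling, filter, pseudocount, tool, block, all 22 libraries in 1 fit, and leaving out each library or pair.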

Additional observations from a re-analysis of the deposited data

Results flagged for a closer look

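In 8 of the 130 groups of 4 examined, that is 2 for each of 65 named genes, 1 library lay far from the other 3, where chance alone gives such a gap in about 1 of 20 groups. Ccnd1 reached 198 CPM in activation library 4, with 119 to 127 CPM in the other activation libraries. Pdlim5 was at 231 CPM in activation library 2, with 298 to 308 CPM in the others, and C77080, a gene with no given role, at 44.9 CPM in the same library, with 66.6 to 68.3 CPM. Myof was at 32.0 CPM in activation library 3 (27.7 to 28.2 CPM in the others), and Hba-a2 at 13.1 CPM in that library (0.134 to 1.07 CPM). Sdcbp2, a syntenin, was at 7.99 CPM in activation library 4, with 3.93 to 4.30 CPM in the others. Among controls, Tubb6 was at 30.8 CPM in control 2 (11.8 to 12.8 CPM in the others) and Msn at 822 CPM in control 3 (921 to 941 CPM).

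For 39 of the 65 named genes the activation effect differed from the silencing effect at an adjusted p under 0.05 in limma, in a fit of the 16 libraries of both experiments. The difference of the log2 fold changes, activation minus silencing, was 1.37 for Cnn2, 1.23 for Pdlim7, 0.90 for Pdlim5, 0.80 for Actn1, 0.79 for Pls3, 0.72 for Arpc2, 0.70 for Tpm4, 0.67 for Coro1c and 0.66 for Msn among actin genes. It was 2.45 for Tubb6, 0.95 for Tubb2a and 0.88 for Tubb4b among tubulins. Other genes that rose after activation had differences of 1.81 for Ccnd1, 1.62 for Mall, 1.62 for Pdgfa, 1.57 for Mcam, 1.45 for Tspan2, 1.30 for Ptpre, 1.25 for Anxa2, 1.20 for Fxyd7, 1.12 for S100a10, 0.90 for Arntl, 0.82 for Adam15 and 0.67 for Ccnd3. For centrosome and motor genes the difference was -0.96 for Pcnt, -0.91 for Kif13b and -0.64 for Cep110, and for PAR bZIP factors -2.01 for Hlf and -1.67 for Tef. For receptors and other membrane or secreted proteins it was -2.55 for Islr2, -1.50 for Scube2, -1.31 for Igf1r, -1.21 for Myof, -1.19 for Megf6 and -1.08 for Tgfbr3. The remaining falling genes had differences of -2.10 for Klhl3, -1.67 for Ddc, -1.44 for Phactr1 and -1.36 for Akr1e1. As these genes were named for their activation effect, the sign of their differences shows nothing further.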

How the results depend on the processing

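The number of genes called after activation depended on the processing. None of the 65 named genes changed sign in any setting tried. All 65 were called with the block in these same libraries, with all 4 pairs one way. Their direction was therefore largely fixed by how they were chosen, and nothing is read from it. Against 18 calls, the replicate block gave 234, and without the block RLE scaling, TMM scaling and no filter gave 0 each, a pseudocount of 0.1 gave 6, a mean of at least 10 CPM gave 13, edgeR 2, DESeq2 374 and all 22 libraries in 1 fit 254, of which 138 were among the 234. With the block, RLE scaling gave 68 and TMM scaling 137, no filter 0, a mean of at least 10 CPM 235, a pseudocount of 0.1 232, edgeR 92 and DESeq2 649. All 92 and all 68 were among the 234, as were 134 of the 137, and the 649 held all 234. With no filter 23630 genes were tested in place of 12872, with 1938 at an unadjusted p under 0.05 without the block and 2919 with it. Leaving out 1 library gave 0 to 8 calls without the block, and leaving out pair 1, 2, 3 or 4 gave 5, 46, 10 or 43 with it. Fewer samples entered these fits. The cause of the other changes was not tested. No named gene's log2 fold change moved by over 1.5 times without a pair, but 3 did without 1 library: Hspa4l (0.28 in place of 0.47), Tuba1a (0.47 in place of 0.73) and Hba-a2 (-0.92 and -2.34 in place of -1.51).

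A difference between the effects of activation and silencing was called for 311 genes, for 855 with the replicate block, for 325 with TMM scaling, for 537 with all 22 libraries, and for 86 to 916 with 1 library left out. The difference of the activation and whisker effects was called for 0 genes, for 1 with the replicate block or with all 22 libraries, and for 0 to 177 with 1 library left out. List medians kept their sign in every setting for SRF and MRTF targets (0.33 to 0.59), tubulins (0.33 to 0.54), actin genes (0.24 to 0.37), ribosome biogenesis (0.25 to 0.39), cytosolic chaperones (0.18 to 0.43), ABC transporters (-0.28 to -0.12) and PAR bZIP factors (-0.90 to -0.71). Other lists did so too, among them smooth muscle markers (0.04 to 0.63) and choroid plexus and ependymal markers (0.29 to 1.1). Many changed sign, such as core clock (-0.14 to 0.22), glucocorticoid response (-0.06 to 0.23) and matrix genes (-0.07 to 0.26). Depth limits the lowest genes most.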
